A study of Mus musculus with 9 samples.

Results

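The genes of the axoneme, the microtubule core of the sperm tail, were followed in mouse spermatids of 3 genotypes. The members are all probes whose gene symbol in the platform annotation begins with Dnah, Dnai, Dnal, Dnaaf, Tekt, Rsph, Cfap or Drc, followed by a digit or a letter. It gave 105 of the 45279 probes in the authors' table, which stand for 59 of 19057 genes with a symbol. A single probe represents 29 of these genes and several probes, up to 5, represent 30.

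Spermatids are the haploid cells that build the sperm tail after meiosis. Each doublet microtubule of the axoneme carries outer and inner dynein arms, motors made of heavy chains (Dnah), intermediate chains (Dnai) and light chains (Dnal), whose pull on the neighbouring doublet bends the tail. Proteins of the Dnaaf family help to fold and assemble the arms in the cytoplasm, tektins run as filaments along the doublets, and the radial spokes (Rsph) and the nexin-dynein regulatory complex (Drc) regulate and connect the doublets. The Cfap symbols name a mixed class of cilia and flagella associated proteins, among them inner proteins of the doublets, partners of the spokes and of the central pair, and assembly factors. In mice and humans, loss of many of these genes gives sperm with short or immotile tails.

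The groups were Wip1-/- spermatids, without the phosphatase encoded by Ppm1d, spermatids labelled Wip1-/- Atm+/-, which by their label also lack 1 allele of the DNA damage kinase gene Atm, and WT spermatids, labelled Wip1+/+. Each genotype was hybridized to 3 Illumina bead arrays, 9 in all, as total RNA turned into labelled cRNA. By its title the series asks how Wip1 acts on heterochromatin through ATM, BRCA1 and methylation of DNA, and its genotypes are compared here for the axoneme genes. The sources used here do not give the strain, the age of the animals, the isolation of the cells or whether arrays of a genotype hold separate animals, so p-values measure only the spread between arrays, which may be technical. In bulk RNA of this kind, fewer cells of a type and less RNA per cell cannot be told apart.

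Scanner medians were 102.6 to 121.8 on the Wip1-/- arrays, 100.5 to 115.4 on arrays labelled Wip1-/- Atm+/- and 101.5 to 108.6 on the WT arrays, and 37.9% to 42% of probes were detected per array. Levels below are normalized log2 intensities. Ppm1d stood at 8.70 ± 0.15 in Wip1-/-, 9.46 ± 0.07 on arrays labelled Wip1-/- Atm+/- and 9.35 ± 0.18 in WT (SD, n = 3 each), so its level does not show the loss that the label Wip1-/- Atm+/- gives, and these arrays are called by their label throughout. Atm stood at 7.89 ± 0.03 in Wip1-/-, 6.37 ± 0.07 on arrays labelled Wip1-/- Atm+/- and 7.09 ± 0.12 in WT (SD, n = 3 each). Where these probes lie relative to the deleted parts is not given, and a probe outside the deleted part checks nothing. Spermatid markers were high in every group, with summed intensities of 7 of 8 listed genes of 157045 to 161755 in Wip1-/-, 158178 to 163239 on arrays labelled Wip1-/- Atm+/- and 152769 to 166233 in WT. Markers of other cells differed between the genotypes. The sum of 7 of 8 peritubular, vascular and stromal markers was 8350 to 9410 in Wip1-/-, 20913 to 21344 on arrays labelled Wip1-/- Atm+/- and 3644 to 3794 in WT (Pecam1 not detected), and that of 3 of 5 erythroid markers was 401 to 481 in Wip1-/-, 1732 to 1815 on arrays labelled Wip1-/- Atm+/- and 210 to 253 in WT. The sum of 4 of 6 spermatocyte markers was 7360 to 7678 in Wip1-/-, 5225 to 5530 on arrays labelled Wip1-/- Atm+/- and 6410 to 6827 in WT (Sycp3 and Hormad1 not kept). The other lists had smaller sums. Those of 3 spermatogonial markers were 466 to 472 in Wip1-/-, 239 to 267 on arrays labelled Wip1-/- Atm+/- and 389 to 503 in WT, and those of 2 Sertoli markers were 560 to 618 in Wip1-/-, 634 to 738 on arrays labelled Wip1-/- Atm+/- and 405 to 529 in WT. The tested markers of Leydig cells, macrophages and epididymis summed to at most 203 in Wip1-/-, 205 on arrays labelled Wip1-/- Atm+/- and 227 in WT. Single markers did not all follow the sums. In Wip1-/- Atm+/- against Wip1-/-, 6 of the 7 stromal markers were called higher and 1 lower (limma adjusted p under 0.05). Of the 4 spermatocyte markers 1 was called higher and 2 lower, and of the 7 spermatid markers 2 higher and 1 lower. Over all genes 16.7% were higher and 18% lower. In Wip1-/- against WT, 1 of the 4 spermatocyte markers was called lower and 0 higher, although their sum was larger. The part of these cell types in the values below was not tested.

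Axonemes are also built by multiciliated cells such as those of the efferent ducts. Of 8 markers of such cells, Mcidas, Gmnc, Foxn4 and Sntn were not kept by the filter on detection. The 4 that were tested, Foxj1 among them, gave 0 calls in each of the 3 comparisons (limma adjusted p of 0.0846 or more). Of all genes 19.8% were called in Wip1-/- against WT, 29.4% in Wip1-/- Atm+/- against WT and 34.7% in Wip1-/- Atm+/- against Wip1-/-. Beside these shares, 0 of 4 does not show that such cells were equal between the genotypes. At an unadjusted p under 0.05 in limma, the 3 comparisons had 1, 0 and 1 of the 4 in the same order. The share of all genes at that level was not taken. Their sums were 10459 to 11297 in Wip1-/-, 8884 to 9780 on arrays labelled Wip1-/- Atm+/- and 6935 to 10282 in WT. Foxj1, the transcription factor that switches on motile cilia, differed by -0.11 in Wip1-/- and by -0.03 on arrays labelled Wip1-/- Atm+/- against WT, and by 0.08 between the mutant genotypes. The tested genes of this list include Dynlrb2, which spermatids are known to express.

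All 9 scanner values are given for 102 of the 105 member probes. A probe counted as detected on an array at a detection p under 0.05 and was kept with 3 or more such arrays of 9, which held for 69 of them. Detection on all 9 arrays was found for 57 probes and on no array for 25. With the brightest kept probe standing for its gene, 47 of the 59 genes were tested, 41 of them through a probe detected on every array. The 12 genes without a test were the heavy chains Dnah5, Dnah6, Dnah9 and Dnah10, the assembly factors Dnaaf3, Dnaaf4, Dnaaf6 and Dnaaf6b, and Cfap20dc, Cfap36, Cfap74 and Cfap97d2. Dnah5 and Dnah9 are the outer arm heavy chains of respiratory cilia. Dnaaf3 has only blank scanner cells here, and its values in the authors' table are given further on.

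Few axoneme genes were called in Wip1-/- against WT, a smaller share than of all genes. Of the 47 genes, 5 rose and 1 fell in Wip1-/- against WT (limma adjusted p under 0.05), together 12.8%, against 19.8% of the 10556 genes tested in all (11.5% higher and 8.36% lower). Those that rose were the heavy chains Dnah8, Dnah17 and Dnah11, the light chain Dnal1 and Cfap58, by 0.36 to 0.74 on the log2 scale, and the one that fell was Tekt5. The 3 arrays of each genotype did not overlap for 21 members, 44.7%, against 38% of all genes. The members' median change was 0.20, with 33 of 47 (70.2%) above 0, beside a median of 0.04 and 54.5% above 0 over all genes. This difference depended on the scaling: with each array scaled to its median in place of quantile normalization, the members' median was 0.10 and that of all genes 0.11, while with cyclic loess they were 0.18 and 0.04. The count of 6 varied with the settings: it was 2 without WT replicate 3 (4.26% of members, against 18% of all genes), 2 without Wip1-/- replicate 3 (against 12.1% of all genes), 3 without Wip1-/- replicate 1 (6.38%, against 11.7%) or Wip1-/- replicate 2 (against 14.8%), and 12 with no background correction (25.5%, against 22.3%).

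On arrays labelled Wip1-/- Atm+/-, 4 members were higher and 6 lower than in WT, together 21.3% of 47, against 29.4% of all genes (15.5% higher and 13.9% lower). Dnah8, Dnah11 and Dnah17 rose here too, joined by Cfap65, and Tekt5, Dnah1, the assembly factor Dnaaf2, Drc7, Cfap61 and Cfap70 fell. No overlap of the arrays was seen for 19 members, 40.4%, against 41.3% of all genes. The median change was -0.02 over members and -0.03 over all genes. Median scaling moved the median of the members to -0.19 and that of all genes to -0.15, and it gave 1 higher and 11 lower members, beside 1319 higher and 2451 lower among all genes. Cyclic loess gave 7 higher and 4 lower members, beside 1864 higher and 1117 lower among all genes, with medians of 0.05 for the members and 0.03 for all genes. Both comparisons with WT use the same WT arrays.

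Set against Wip1-/-, arrays labelled Wip1-/- Atm+/- had 1 higher and 11 lower members, together 25.5%, against 34.7% of all genes (16.7% higher and 18% lower). The lower genes came from 7 of the 8 families. They were the intermediate chain Dnaic2, the light chain Dnal1, Dnaaf2, Tekt1, Tekt3, Rsph1, Drc7 and Cfap61, Cfap70, Cfap97 and Cfap206, by 0.39 to 1.19 on the log2 scale. Cfap300 alone was higher. The arrays did not overlap for 22 members, 46.8%, against 49.3% of all genes. The members' median was -0.14 with 12 of 47 (25.5%) above 0, beside -0.02 and 47.9% over all genes. With median scaling the medians were -0.30 for members and -0.21 for all genes, with 1 member higher and 15 lower, beside 1230 and 3544 of all genes. With cyclic loess they were -0.09 and 0.03, with 3 members higher and 9 lower, beside 1982 and 1538 of all genes.

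By group means, Wip1-/- had the highest mean of the 3 genotypes for 29 of the 47 members (61.7%), against 35.7% of all genes. Arrays labelled Wip1-/- Atm+/- had the highest mean for 10 members (21.3%, against 34% of all genes) and WT for 8 (17%, against 30.3%). Array by array, the median deviation of the members from each gene's mean over the 9 arrays was 0.16, 0.05 and 0.11 on the Wip1-/- arrays, -0.05, -0.08 and -0.03 on arrays labelled Wip1-/- Atm+/-, and -0.02, -0.01 and -0.05 on the WT arrays. All 3 Wip1-/- arrays thus lay above the other 6, which overlapped each other. These shares and deviations were taken under quantile normalization only. The members were also brighter than all genes tested, with array medians of 10.80 to 11.24 against 7.73 to 7.81. No share over genes of like brightness was taken. Within a genotype the members' median SD over 3 arrays was 0.11 in Wip1-/-, 0.10 on arrays labelled Wip1-/- Atm+/- and 0.13 in WT, beside 0.14, 0.15 and 0.17 over all genes in the same order. The widest were Dnal4, with an SD of 0.62 in Wip1-/- and 0.59 on arrays labelled Wip1-/- Atm+/-, and Cfap20, with 0.44 in WT.

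**Figure D1:**
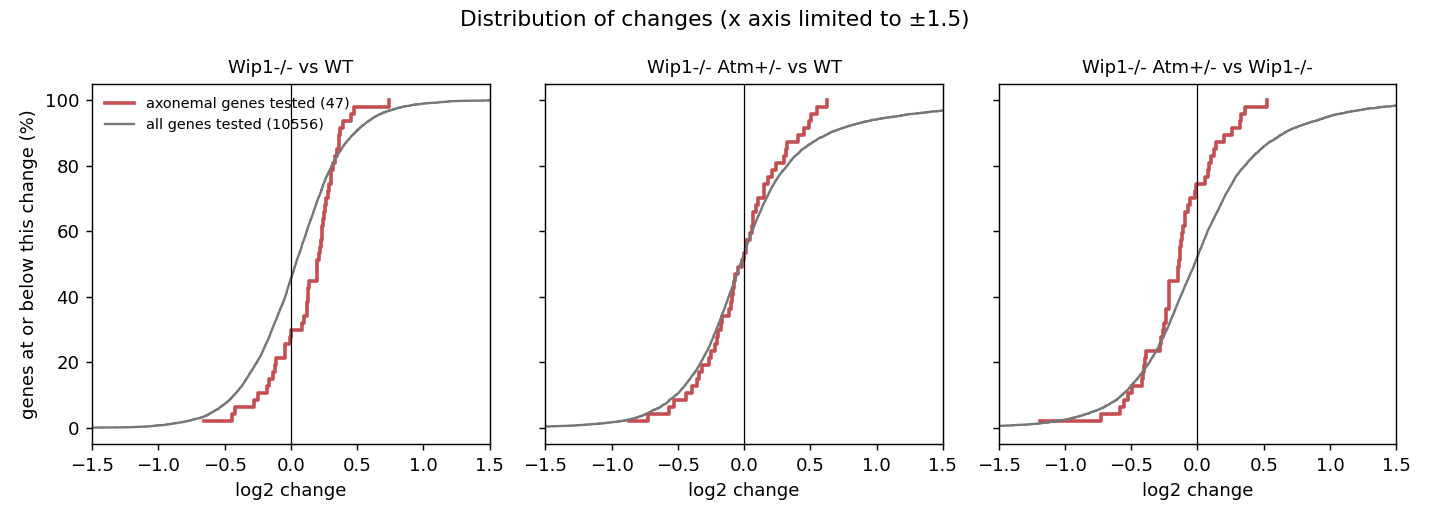
Cumulative share of genes (percent, vertical axis) at or below each log2 change (horizontal axis, limited to ±1.5) in the 3 comparisons, for the 47 axoneme genes tested (red) and all 10556 genes tested (grey). The red curve lies to the right of the grey one over most of the range in Wip1-/- against WT (medians 0.20 and 0.04) and to the left of it around 0 in Wip1-/- Atm+/- against Wip1-/- (medians -0.14 and -0.02).

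**Figure D2:**
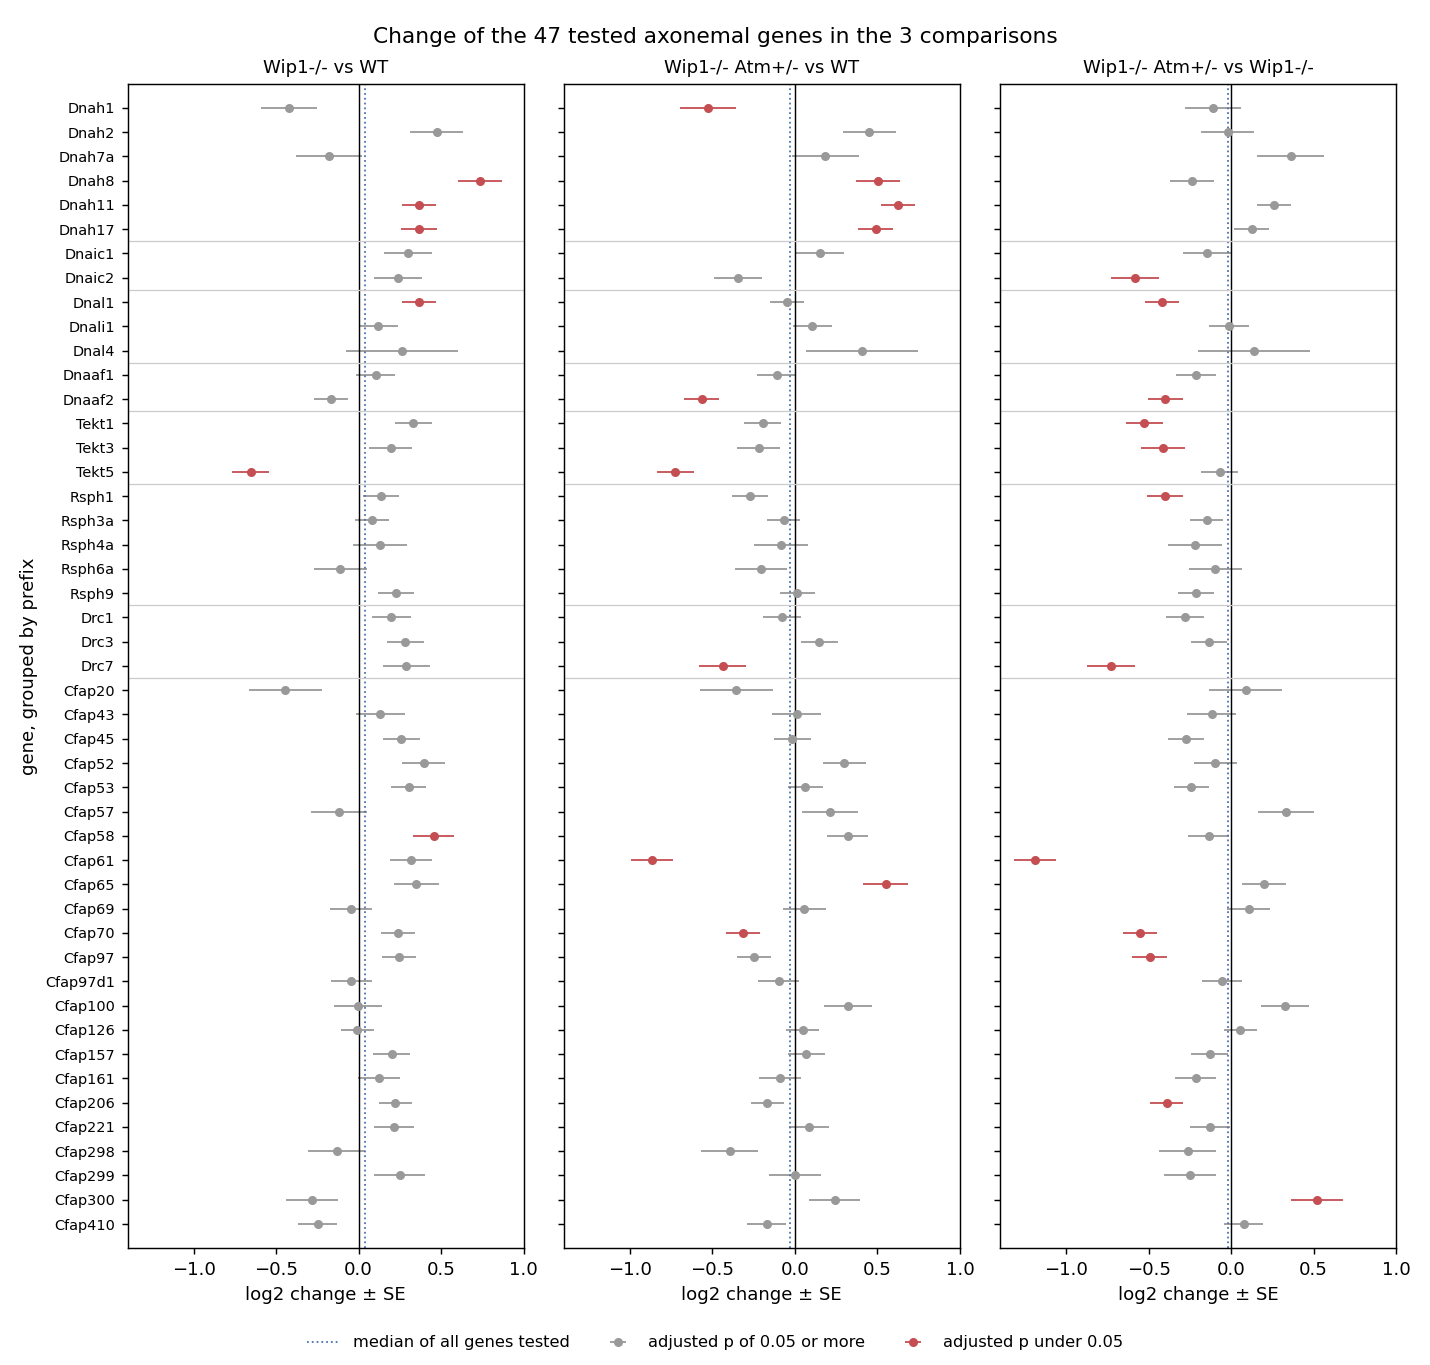
Log2 change (points) and its standard error (bars) of each of the 47 tested axoneme genes, grouped by family, in the 3 comparisons, with changes at an adjusted p under 0.05 in red. The solid line marks 0 and the dotted line the median of all genes tested. The red points number 6, 10 and 12 from left to right, and the farthest is Cfap61 at -1.19.

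Regulatory factors of the RFX family bind a sequence known as the X-box in front of genes of motile cilia and flagella. The promoters of the members were therefore searched for it in the RefSeq windows of build GRCm38.p6, from 250 bases before to 50 bases after the gene start. Entries were found for 51 of the 59 genes, with 55 windows. The X-box, searched on either strand as GTNNCC and GNAAC with any 3 bases between them, was present in 16.4% of these windows (9 of 55), against 2.17% of all 32851 windows. The shorter GGCAAC, which overlaps the longer motif where its last letters are so spelled, was present in 34.5%, against 12.5% of all. The CRE motif TGACGTCA, which the spermatid factor CREM binds, was present in 1.82%, against 1.79% of all. A match is a description of the sequence and no evidence of binding. The 4 called genes with a match to the long motif are shown because they moved in different directions: Cfap61, Cfap206 and Dnaaf2 fell on arrays labelled Wip1-/- Atm+/- against Wip1-/-, and Dnah17 rose in both mutant genotypes against WT. Each match is written in the orientation of the motif, with the letters that the motif fixes in capitals.
Cfap61, chr2:145934776-145934789, plus strand, from 8 bases before the start and running past it: GTttCCttaGcAAC
Cfap206, chr4:34730216-34730229, plus strand, from 23 bases before the start: GTaaCCgtgGaAAC
Dnaaf2, chr12:69198433-69198446, plus strand, from 17 bases before the start: GTtgCCataGtAAC
Dnah17, chr11:118129365-118129378, minus strand, from 159 bases before the start: GTcaCCagcGcAAC

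The long motif also matched in the tested genes Cfap45 and Cfap298, which were called in 0 comparisons, and in Cfap20dc, Dnaaf6 and Dnaaf6b, which were not kept by the filter on detection. The 250 bases before the start are shown for Dnaaf2, with its match close to the start, for Dnah17, with its match farther away, and for Tekt5, which has none and fell in both mutant genotypes. All are written along the gene, so the Dnaaf2 match appears as its reverse complement, and capitals mark the match.
Dnaaf2, chr12:69198430-69198679, minus strand: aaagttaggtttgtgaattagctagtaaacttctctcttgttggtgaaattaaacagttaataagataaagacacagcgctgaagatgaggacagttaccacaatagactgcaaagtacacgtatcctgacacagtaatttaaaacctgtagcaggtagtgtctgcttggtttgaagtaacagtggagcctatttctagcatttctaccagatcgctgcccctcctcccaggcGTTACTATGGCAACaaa
Dnah17, chr11:118129220-118129469, minus strand: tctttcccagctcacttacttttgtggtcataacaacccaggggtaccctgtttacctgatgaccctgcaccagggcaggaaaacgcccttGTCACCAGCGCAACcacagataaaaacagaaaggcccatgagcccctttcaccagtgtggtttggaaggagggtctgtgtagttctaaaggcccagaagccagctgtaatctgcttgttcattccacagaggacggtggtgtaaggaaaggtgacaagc
Tekt5, chr16:10395456-10395705, minus strand: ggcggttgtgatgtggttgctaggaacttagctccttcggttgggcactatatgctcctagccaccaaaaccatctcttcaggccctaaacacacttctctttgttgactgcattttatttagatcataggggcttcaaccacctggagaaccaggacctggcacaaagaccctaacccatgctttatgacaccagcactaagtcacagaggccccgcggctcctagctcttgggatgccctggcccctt

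Of 15 listed transcription factors of cilia and spermatid genes, 11 were tested. In Wip1-/- against WT, 2 were higher and 0 lower, on arrays labelled Wip1-/- Atm+/- 2 were higher and 2 lower than in WT, and 1 was higher and 3 were lower than in Wip1-/-. Together these were 18.2%, 36.4% and 36.4% of the 11, beside 19.8%, 29.4% and 34.7% of all genes. Among the X-box factors, Rfx3 fell by 0.74 against WT (limma adjusted p = 0.00273) and by 0.57 against Wip1-/- (limma adjusted p = 0.0105) on arrays labelled Wip1-/- Atm+/-, where Rfx1 rose by 0.87 (limma adjusted p = 0.00129) and 0.66 (limma adjusted p = 0.00595). Rfx2, the main X-box factor known in mouse spermatids, changed by 0.16, 0.12 and -0.04 in Wip1-/- against WT, Wip1-/- Atm+/- against WT and Wip1-/- Atm+/- against Wip1-/- and was not called. Against WT, Rfx4 was higher by 0.69 in Wip1-/- (limma adjusted p = 0.00416) and by 0.43 on arrays labelled Wip1-/- Atm+/- (limma adjusted p = 0.0265). Taf7l, a germ cell paralogue of a general transcription factor subunit, rose by 0.45 in Wip1-/- against WT (limma adjusted p = 0.0348). It was lower than in WT on arrays labelled Wip1-/- Atm+/-, with a change of -0.68 (limma adjusted p = 0.00252).

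The dynein heavy chains are the motor subunits. Of 10 Dnah genes 6 were tested. Against WT, 3 rose and 0 fell in Wip1-/-, while Wip1-/- Atm+/- had 3 higher and 1 lower. These were 50% and 66.7% of the 6, beside 19.8% and 29.4% of all genes. Between the mutant genotypes limma called 0, against 34.7% of all genes, with 1 of the 6 at an unadjusted p under 0.05. Dnah8, an outer arm heavy chain of sperm, stood at 11.48, 11.32 and 11.63 in Wip1-/-, at 11.35, 11.17 and 11.20 on arrays labelled Wip1-/- Atm+/- and at 10.80, 10.90 and 10.51 in WT. All 6 mutant arrays lay above the 3 WT arrays, and the mutant genotypes overlapped. The rise was 0.74 in Wip1-/- (SE 0.13, limma adjusted p = 0.00365), or 1.67-fold, and 0.50 on arrays labelled Wip1-/- Atm+/- (SE 0.13, limma adjusted p = 0.0153). A further Dnah8 probe read 8.94, 9.10 and 9.03 in Wip1-/-, 7.86, 8.45 and 8.37 on arrays labelled Wip1-/- Atm+/- and 8.57, 8.45 and 8.19 in WT. By this probe Wip1-/- lay above both other groups, which overlapped: it rose by 0.62 in Wip1-/- against WT (limma adjusted p = 0.0257 over all detected probes) and fell by 0.80 on arrays labelled Wip1-/- Atm+/- against Wip1-/- (limma adjusted p = 0.0035), with a change of -0.18 against WT (limma adjusted p = 0.463). The probes of Dnah8 thus gave the same result for Wip1-/- and different ones for arrays labelled Wip1-/- Atm+/-. The rise in those arrays was lost with median scaling (0.29), with the mean of both probes (0.16), without WT replicate 3 (0.39) and without Wip1-/- Atm+/- replicate 1 (0.44), and its adjusted p over all settings ran from 0.00287 to 0.344.

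Dnah17, the other outer arm heavy chain known from sperm, stood at 10.08, 9.98 and 10.16 in Wip1-/-, at 10.17, 10.18 and 10.23 on arrays labelled Wip1-/- Atm+/- and at 9.83, 9.62 and 9.67 in WT. The 3 groups did not overlap. It rose by 0.37 in Wip1-/- (SE 0.11, limma adjusted p = 0.0341) and by 0.49 on arrays labelled Wip1-/- Atm+/- (SE 0.11, limma adjusted p = 0.00516). Dnah11, an outer arm heavy chain known from airway and nodal cilia, stood at 8.22, 8.11 and 8.16 in Wip1-/-, at 8.54, 8.36 and 8.37 on arrays labelled Wip1-/- Atm+/- and at 7.76, 7.83 and 7.80 in WT. Again the 3 groups were apart, with arrays labelled Wip1-/- Atm+/- highest. The rise was 0.36 in Wip1-/- (SE 0.10, limma adjusted p = 0.0298) and 0.62 on arrays labelled Wip1-/- Atm+/- (SE 0.10, limma adjusted p = 0.000892). For Wip1-/- the Dnah11 call was lost without any 1 of the 3 WT or the 3 Wip1-/- arrays, with changes of 0.34 to 0.39 over the left-out fits and adjusted p of 0.00678 to 0.103 over all settings. The Dnah17 call in Wip1-/- was lost with only the genotypes compared and in 6 of the 9 left-out fits (0.32 to 0.43), those without WT replicate 2 or 3, without any 1 Wip1-/- array and without Wip1-/- Atm+/- replicate 3, at an adjusted p of 0.0119 to 0.121 over all settings. On arrays labelled Wip1-/- Atm+/- the Dnah17 rise was 0.26 and not called with median scaling (adjusted p of 0.000847 to 0.114 over all settings), and that of Dnah11 was called in every setting.

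Dnah1, an inner arm heavy chain, was near the background. It read 5.49, 5.37 and 4.95 in Wip1-/-, 5.32, 4.89 and 5.28 on arrays labelled Wip1-/- Atm+/- and 5.89, 5.58 and 5.61 in WT, and was detected on 1 Wip1-/- array, 0 arrays labelled Wip1-/- Atm+/- and 2 WT arrays. The WT arrays were the highest, apart from both mutant groups. The probe thus met the filter at its minimum of 3 arrays, through arrays outside the lower group. The fit gave -0.53 on arrays labelled Wip1-/- Atm+/- against WT (limma adjusted p = 0.0374), with undetected values on those arrays. As a bound, which this p-value does not measure, the level there was at least 1.12-fold lower than in WT. The bound sets the WT mean against, on each dim array, the higher of the probe's signal and the lowest signal among detected probes. The call against WT was lost in 4 of 8 other settings, no filter on detection among them (limma adjusted p = 0.0595). It was also lost without WT replicate 1 or 3 or Wip1-/- Atm+/- replicate 2 or 3. Changes were -0.61 to -0.39 over the left-out fits, and adjusted p was 0.0248 to 0.131 over all settings. Dnah2, also an inner arm heavy chain, was not called (0.47 in Wip1-/-, limma adjusted p = 0.06, and 0.45 on arrays labelled Wip1-/- Atm+/-, limma adjusted p = 0.055, against WT), although neither mutant group overlapped with WT. Its further probe changed by -0.01 and -0.25. Dnah7a, an inner arm heavy chain too, changed by -0.18, 0.18 and 0.36 in Wip1-/- against WT, Wip1-/- Atm+/- against WT and Wip1-/- Atm+/- against Wip1-/-, and was not called.

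Both intermediate chains of the outer arm were tested, under the older symbols Dnaic1 and Dnaic2 of Dnai1 and Dnai2. Dnaic2 stood at 8.55, 8.46 and 8.69 in Wip1-/-, at 7.84, 7.97 and 8.15 on arrays labelled Wip1-/- Atm+/- and at 8.42, 8.52 and 8.05 in WT. The mutant groups were apart, with arrays labelled Wip1-/- Atm+/- lower, and WT overlapped both. It fell by 0.58 in Wip1-/- Atm+/- against Wip1-/- (SE 0.14, limma adjusted p = 0.00936). Dnaic1 stood at 11.24, 10.90 and 11.05 in Wip1-/-, 11.07, 10.66 and 11.03 on arrays labelled Wip1-/- Atm+/- and 10.59, 10.91 and 10.80 in WT. Its groups overlapped in all 3 comparisons and it was not called (limma adjusted p of 0.181 or more).

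The light chains were represented by 3 tested genes. Dnal1, a light chain bound to the motor domain of an outer arm heavy chain, stood at 11.65, 11.56 and 11.71 in Wip1-/-, at 11.21, 11.24 and 11.22 on arrays labelled Wip1-/- Atm+/- and at 11.35, 11.28 and 11.18 in WT. The Wip1-/- arrays were the highest, and the other groups overlapped. Dnal1 rose by 0.37 in Wip1-/- against WT (SE 0.10, limma adjusted p = 0.0285) and fell by 0.42 in Wip1-/- Atm+/- against Wip1-/- (SE 0.10, limma adjusted p = 0.0089). Its further kept probe moved by 0.27 and -0.15 in these comparisons and was not called. The rise in Wip1-/- was lost with median scaling (0.29), with only the genotypes compared, and without WT replicate 2 or 3 or Wip1-/- replicate 1 or 3 (0.32 to 0.41 over the left-out fits), with adjusted p of 0.00715 to 0.103 over all settings.

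Another Dnal1 probe has blank scanner cells and was read from the authors' processed table, which has no background correction. There it stood at 1504, 1447 and 1548 in Wip1-/-, at 1514, 1388 and 1354 on arrays labelled Wip1-/- Atm+/- and at 1149, 1127 and 1178 in WT. All 6 mutant arrays lay above the WT arrays, and the mutant groups overlapped. In a limma fit of log2 values over all 45279 probes of that table it was 0.38 higher in Wip1-/- (SE 0.08, adjusted p = 0.00691) and 0.30 higher on arrays labelled Wip1-/- Atm+/- (SE 0.08, adjusted p = 0.0215) than in WT, and -0.08 between the mutant genotypes (adjusted p = 0.694). The call on arrays labelled Wip1-/- Atm+/- was lost without WT replicate 1 or 2 or Wip1-/- Atm+/- replicate 1 (0.25 to 0.33 over the left-out fits, adjusted p of 0.0287 to 0.098). Against WT, these 3 Dnal1 probes therefore gave values of one direction in Wip1-/- and of both directions on arrays labelled Wip1-/- Atm+/-. The array has 4 Dnal1 probes, and the last was not kept by the filter on detection. Dnali1, an inner arm light chain, had the brightest kept probe of this family, at 13.02, 12.78 and 12.99 in Wip1-/-, 13.01, 12.74 and 13.00 on arrays labelled Wip1-/- Atm+/- and 12.75, 12.89 and 12.79 in WT. All its groups overlapped, and no comparison called it (limma adjusted p of 0.519 or more). Dnal4, a small dynein light chain, was seen on 7 of 9 arrays and was not called.

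Among the assembly factors 2 of 6 were tested. Dnaaf2, a cytoplasmic factor of early dynein assembly, stood at 9.46, 9.35 and 9.44 in Wip1-/-, at 9.03, 9.12 and 8.90 on arrays labelled Wip1-/- Atm+/- and at 9.60, 9.60 and 9.54 in WT. The 3 groups were apart, with arrays labelled Wip1-/- Atm+/- lowest. It fell by 0.57 against WT (SE 0.10, limma adjusted p = 0.00188), 1.48-fold, and by 0.40 against Wip1-/- (SE 0.10, limma adjusted p = 0.0123). The further Dnaaf2 probe changed by -0.33 and -0.18 and was not called. With the mean of both probes the calls were lost (-0.45 and -0.29), and the one against Wip1-/- also without Wip1-/- Atm+/- replicate 3 (-0.34), with adjusted p over all settings of 0.000259 to 0.0677 against WT and 0.000727 to 0.207 against Wip1-/-.

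Dnaaf1, an assembly factor with leucine-rich repeats, stood at 14.64, 14.47 and 14.64 in Wip1-/-, at 14.44, 14.21 and 14.46 on arrays labelled Wip1-/- Atm+/- and at 14.39, 14.63 and 14.43 in WT. The mutant groups were apart and WT overlapped both. It was not called, with changes of 0.10, -0.11 and -0.21 in Wip1-/- against WT, Wip1-/- Atm+/- against WT and Wip1-/- Atm+/- against Wip1-/-, and its 3 probes gave 0 calls. Dnaaf3, in the authors' table only, stood at 2908, 2906 and 2984 in Wip1-/-, 2717, 2664 and 2744 on arrays labelled Wip1-/- Atm+/- and 2573, 2422 and 2497 in WT. The groups were apart and in that order, but no difference passed the threshold in the fit of that table (0.23 in Wip1-/- and 0.12 on arrays labelled Wip1-/- Atm+/- against WT, limma adjusted p = 0.0944 and 0.462).

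The tektins moved in different ways. Tekt5, a tektin of the sperm tail, stood at 9.41, 9.39 and 9.60 in Wip1-/-, at 9.45, 9.30 and 9.44 on arrays labelled Wip1-/- Atm+/- and at 10.20, 10.15 and 10.01 in WT. All 6 mutant arrays lay below the WT arrays, and the mutant groups overlapped. The fall was 0.66 in Wip1-/- (SE 0.11, limma adjusted p = 0.00275), or 1.57-fold, and 0.73 on arrays labelled Wip1-/- Atm+/- (SE 0.11, limma adjusted p = 0.000548), or 1.65-fold. Both calls were kept in all 9 other settings and all 9 left-out fits. Between the mutant genotypes the change was -0.07 (limma adjusted p = 0.668).

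Tekt1, a tektin of the flagellum and of motile cilia, stood at 14.51, 14.32 and 14.42 in Wip1-/-, at 13.98, 13.84 and 13.85 on arrays labelled Wip1-/- Atm+/- and at 14.18, 14.11 and 13.96 in WT. Wip1-/- was the highest and apart from both other groups, which overlapped. It fell by 0.53 in Wip1-/- Atm+/- against Wip1-/- (SE 0.11, limma adjusted p = 0.00368), and changed by 0.33 in Wip1-/- against WT (limma adjusted p = 0.059). Its further probe moved by -0.19 between the mutant genotypes and was not called. Tekt3, known for sperm motility in mice, stood at 13.13, 12.98 and 13.28 in Wip1-/-, at 12.71, 12.53 and 12.90 on arrays labelled Wip1-/- Atm+/- and at 12.98, 12.81 and 13.02 in WT. The mutant groups were apart and WT overlapped both. Its fall of 0.41 in Wip1-/- Atm+/- against Wip1-/- (SE 0.13, limma adjusted p = 0.0303) was lost with cyclic loess and in 4 of the 9 left-out fits, without Wip1-/- replicate 1 or 3 and without Wip1-/- Atm+/- replicate 1 or 2 (-0.50 to -0.32, adjusted p of 0.00713 to 0.115 over all settings).

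**Figure D3:**
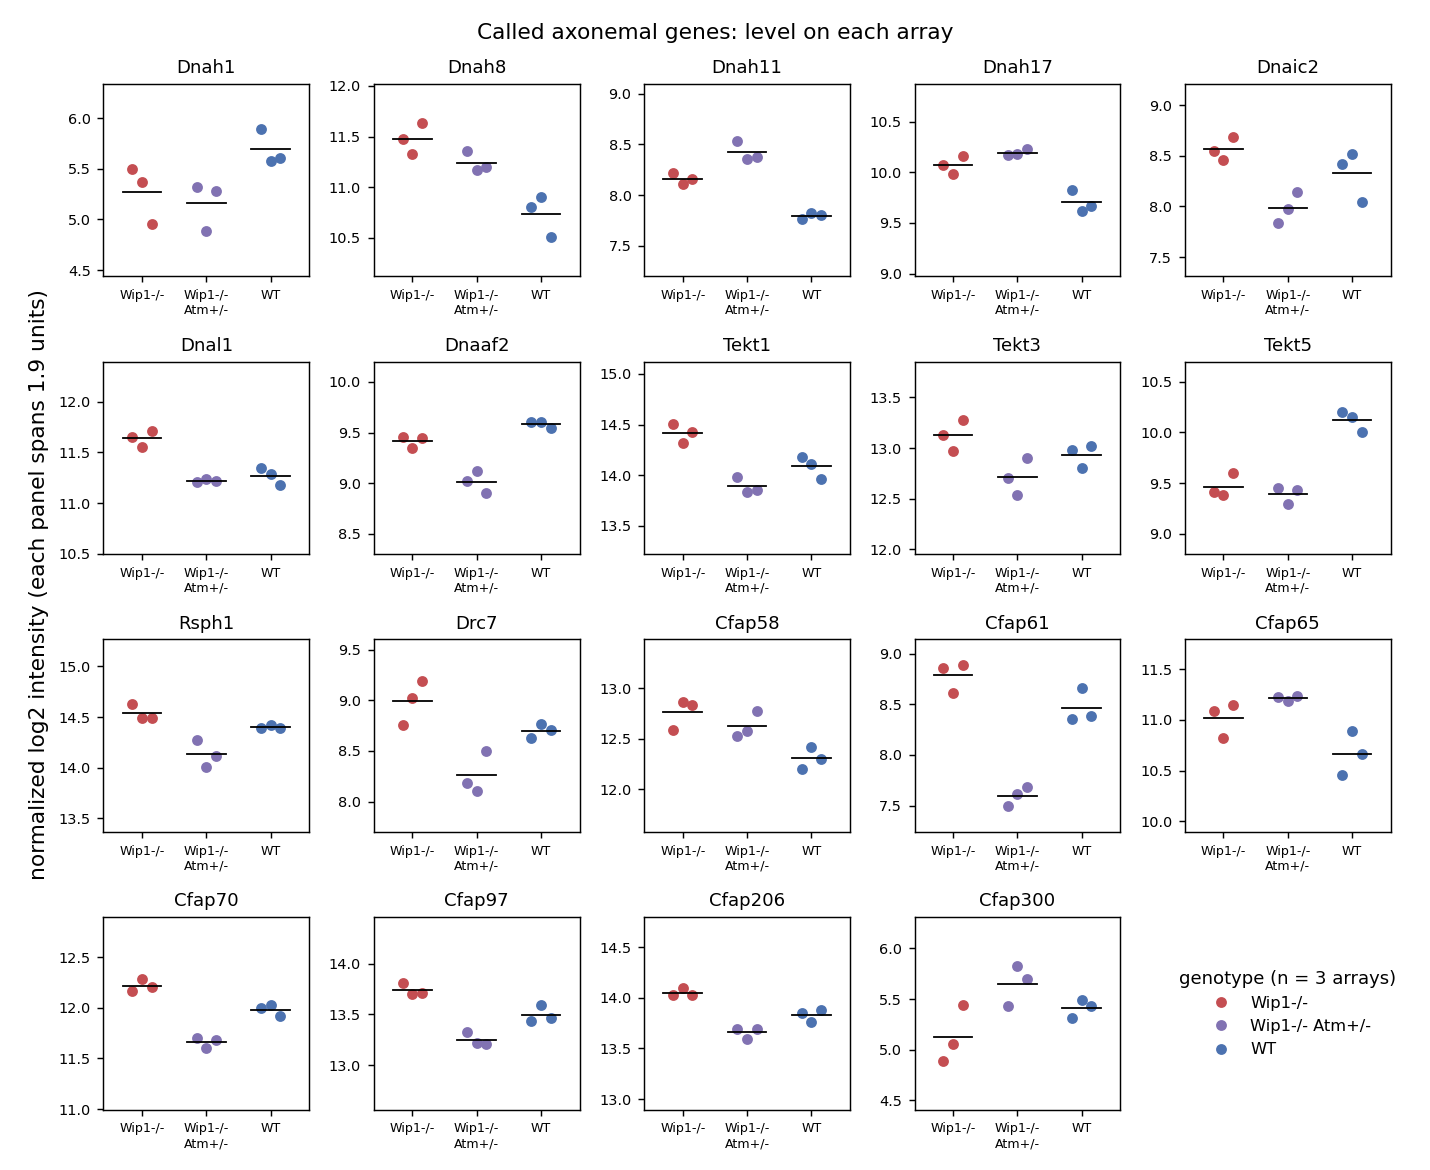
Normalized log2 intensity (vertical axes, each spanning 1.9 units at its own position) of the 19 axoneme genes called in at least 1 comparison, 1 panel per gene, with 1 point per array, 3 arrays per genotype and a line at the mean. Tekt5 is below WT on all 6 mutant arrays, Dnah8, Dnah11 and Dnah17 are above WT on all 6, and Cfap61 is lowest on arrays labelled Wip1-/- Atm+/-.

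All 5 radial spoke genes were tested. Rsph1, a spoke head protein, was the only one called. It stood at 14.63, 14.49 and 14.49 in Wip1-/-, at 14.28, 14.01 and 14.11 on arrays labelled Wip1-/- Atm+/- and at 14.39, 14.42 and 14.39 in WT. The 3 groups did not overlap, with Wip1-/- highest and arrays labelled Wip1-/- Atm+/- lowest. The fall in Wip1-/- Atm+/- against Wip1-/- was 0.40 (SE 0.11, limma adjusted p = 0.0144), and the change of -0.27 in Wip1-/- Atm+/- against WT was not called (limma adjusted p = 0.0887). The call was lost with median scaling (-0.33), without Wip1-/- replicate 1 (-0.36) and without Wip1-/- Atm+/- replicate 2 (-0.34), with adjusted p of 0.00151 to 0.0672 over all settings. Rsph3a, of the spoke stalk, Rsph4a and Rsph9, of the spoke head, and Rsph6a, the spoke head paralogue of sperm, changed by -0.22 to 0.23 in the 3 comparisons and were not called.

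Rsph9 also has a probe with blank scanner cells. In the authors' table it stood at 4374, 4501 and 4180 in Wip1-/-, at 3654, 3756 and 3503 on arrays labelled Wip1-/- Atm+/- and at 4131, 3710 and 3961 in WT. The mutant groups were apart and WT overlapped with arrays labelled Wip1-/- Atm+/-. This probe was 0.26 lower in Wip1-/- Atm+/- than in Wip1-/- (log2 change -0.26, SE 0.08, limma adjusted p = 0.0456 over all probes of that table), close to the -0.21 of the probe with scanner values. The call on the blank probe was lost in a fit over blank probes alone and in 7 of the 9 left-out fits, those without WT replicate 3 or any 1 mutant array (-0.29 to -0.23 over the left-out fits, adjusted p of 0.0446 to 0.157).

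The 3 genes of the nexin-dynein regulatory complex were all tested. Drc7, a linker component needed for normal sperm tails in mice, stood at 8.75, 9.03 and 9.19 in Wip1-/-, at 8.18, 8.11 and 8.50 on arrays labelled Wip1-/- Atm+/- and at 8.63, 8.77 and 8.71 in WT. Arrays labelled Wip1-/- Atm+/- were the lowest, apart from both other groups, which overlapped. It fell by 0.73 against Wip1-/- (SE 0.14, limma adjusted p = 0.00246), or 1.66-fold, and by 0.44 against WT (SE 0.14, limma adjusted p = 0.0406). The call against Wip1-/- was kept in every setting. The one against WT was lost with cyclic loess, with no filter on detection and in 6 of 9 left-out fits, without any 1 WT array, Wip1-/- replicate 2, and Wip1-/- Atm+/- replicate 1 or 2 (-0.56 to -0.36, adjusted p of 0.00498 to 0.13 over all settings).

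Drc1, a scaffold subunit of the complex, stood at 12.01, 11.99 and 11.93 in Wip1-/-, at 11.58, 11.69 and 11.83 on arrays labelled Wip1-/- Atm+/- and at 11.65, 11.91 and 11.78 in WT by its brightest probe. Wip1-/- lay above both other groups, which overlapped, and no comparison was called (limma adjusted p = 0.252, 0.653 and 0.084). Its further probe read 10.36, 10.60 and 10.30 in Wip1-/-, 9.19, 9.43 and 9.93 on arrays labelled Wip1-/- Atm+/- and 10.33, 10.35 and 10.18 in WT. By that probe arrays labelled Wip1-/- Atm+/- were below all others, with a fall of 0.77 against WT (limma adjusted p = 0.00718 over all detected probes) and of 0.91 against Wip1-/- (limma adjusted p = 0.00233). The probes of Drc1 thus differ in size and in call, with no called change of opposite sign. Drc3 was not called by any of its 3 kept probes.

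The Cfap genes formed the largest family, with 23 of 27 tested. In Wip1-/- against WT 1 rose and 0 fell, in Wip1-/- Atm+/- 1 rose and 2 fell against WT, and 1 was higher and 4 were lower than in Wip1-/-. Together these were 4.35%, 13% and 21.7% of the 23, beside 19.8%, 29.4% and 34.7% of all genes. Cfap61, a protein at the base of the radial spokes, had the largest change of all members. It stood at 8.86, 8.61 and 8.89 in Wip1-/-, at 7.50, 7.62 and 7.69 on arrays labelled Wip1-/- Atm+/- and at 8.35, 8.66 and 8.39 in WT. Arrays labelled Wip1-/- Atm+/- lay far below both other groups, which overlapped. The fall was 1.19 against Wip1-/- (SE 0.13, limma adjusted p = 4.3e-05), or 2.28-fold, and 0.87 against WT (SE 0.13, limma adjusted p = 0.000381), or 1.82-fold. Both calls were kept in all 9 other settings and all 9 left-out fits. Its further kept probe was dim and did not show this: it read 6.64, 6.33 and 6.56 in Wip1-/-, 6.62, 6.45 and 6.67 on arrays labelled Wip1-/- Atm+/- and 6.90, 6.88 and 6.50 in WT, overlapping throughout, with changes of 0.07 and -0.18 (limma adjusted p = 0.741 and 0.391).

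Cfap70, a protein of the outer dynein arms, stood at 12.16, 12.29 and 12.20 in Wip1-/-, at 11.71, 11.60 and 11.69 on arrays labelled Wip1-/- Atm+/- and at 11.996, 12.026 and 11.915 in WT. The 3 groups were apart. Its fall was 0.55 against Wip1-/- (SE 0.10, limma adjusted p = 0.0015) and 0.31 against WT (SE 0.10, limma adjusted p = 0.0371). The further probe changed by 0.03 and -0.22 and was not called, and with the mean of both probes the calls were lost (-0.26 and -0.27). Against WT the call was also lost with only the genotypes compared and in 8 of 9 left-out fits, all but that without WT replicate 3 (-0.35 to -0.28), so that adjusted p over all settings was 9.4e-05 to 0.158 against Wip1-/- and 0.00402 to 0.164 against WT.

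Cfap206, an adaptor of a radial spoke, stood at 14.03, 14.10 and 14.03 in Wip1-/-, at 13.69, 13.59 and 13.69 on arrays labelled Wip1-/- Atm+/- and at 13.85, 13.76 and 13.88 in WT. The 3 groups were apart, with Wip1-/- highest. It fell by 0.39 in Wip1-/- Atm+/- against Wip1-/- (SE 0.10, limma adjusted p = 0.0109), a call that median scaling (-0.30) and cyclic loess (-0.26) ended (adjusted p of 0.00149 to 0.0645 over all settings). The further Cfap206 probe fell by 0.62 in the same comparison and by 0.35 against WT in the fit of all detected probes. Cfap97, related to a Drosophila gene of sperm tails, stood at 13.81, 13.70 and 13.72 in Wip1-/-, at 13.33, 13.22 and 13.20 on arrays labelled Wip1-/- Atm+/- and at 13.44, 13.60 and 13.46 in WT. Again the groups were apart in the same order. The fall against Wip1-/- was 0.49 (SE 0.10, limma adjusted p = 0.0036). Its further probe went another way, with 6.51, 6.84 and 6.65 in Wip1-/-, 6.84, 6.40 and 6.69 on arrays labelled Wip1-/- Atm+/- and 7.49, 7.23 and 7.33 in WT. By that probe WT was the highest and the mutant groups overlapped, with a fall of 0.69 in Wip1-/- (limma adjusted p = 0.0088 over all detected probes) and 0.71 on arrays labelled Wip1-/- Atm+/- (limma adjusted p = 0.004) against WT. With the mean of both probes the call against Wip1-/- was lost (-0.26, adjusted p of 0.000307 to 0.075 over all settings).

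Rises among the Cfap genes were fewer. Cfap58, needed for normal sperm tails in mice and humans, stood at 12.59, 12.87 and 12.83 in Wip1-/-, at 12.53, 12.58 and 12.77 on arrays labelled Wip1-/- Atm+/- and at 12.20, 12.42 and 12.30 in WT. All mutant arrays were above the WT arrays. It rose by 0.46 in Wip1-/- (SE 0.12, limma adjusted p = 0.0249), a call lost with median scaling (0.35) and in 4 of 9 left-out fits, without WT replicate 1 or 3 and without Wip1-/- replicate 2 or 3 (0.40 to 0.54, adjusted p of 0.0049 to 0.0872 over all settings). Cfap65, likewise known from human and mouse sperm tail defects, stood at 11.09, 10.82 and 11.15 in Wip1-/-, at 11.22, 11.19 and 11.24 on arrays labelled Wip1-/- Atm+/- and at 10.45, 10.89 and 10.66 in WT. Arrays labelled Wip1-/- Atm+/- were apart above both other groups, which overlapped. Its rise of 0.55 against WT (SE 0.14, limma adjusted p = 0.0101) was lost with median scaling (0.35) and with the mean of both probes (0.26), the further probe being at -0.02 (adjusted p of 0.0015 to 0.0803 over all settings). Cfap300, a factor of dynein assembly, was near the background, detected on 1 Wip1-/- array, 2 arrays labelled Wip1-/- Atm+/- and 0 WT arrays. Its probe thus met the filter at the minimum of 3 arrays, mostly through the group called higher. It read 4.89, 5.05 and 5.45 in Wip1-/-, 5.44, 5.82 and 5.70 on arrays labelled Wip1-/- Atm+/- and 5.31, 5.49 and 5.44 in WT. The groups overlapped in every comparison. Its change of 0.52 in Wip1-/- Atm+/- against Wip1-/- (SE 0.16, limma adjusted p = 0.0235) was lost with no background correction (0.24) and in 4 of 9 left-out fits, without Wip1-/- replicate 1 or 2 and without Wip1-/- Atm+/- replicate 2 or 3 (0.40 to 0.67, adjusted p of 0.00724 to 0.0991 over all settings).

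The other 16 tested Cfap genes are, by this choice, those that limma called in 0 comparisons. In each comparison 3 of them stood at an unadjusted p under 0.05 in limma, and the share of all genes there was not taken. These 16 include inner proteins of the doublets (Cfap20, Cfap45, Cfap52, Cfap53, Cfap126 and Cfap161), and the changes of the 16 ran from -0.44 for Cfap20 to 0.40 for Cfap52, both in Wip1-/- against WT. Cfap52 missed the threshold there (limma adjusted p = 0.0529), with Wip1-/- arrays at 11.30, 11.37 and 11.25 and WT arrays at 11.13, 10.69 and 10.92. Those arrays did not overlap. Cfap53 was 0.30 higher in Wip1-/- by its brightest probe (limma adjusted p = 0.066). Cfap43 and Cfap69, known from sperm tail defects in mice and humans, changed by at most 0.13 in size by their brightest probes, and the further probe of Cfap69 was 0.47 higher in Wip1-/- Atm+/- than in Wip1-/- (called over all detected probes). In the same comparison the further kept probe of Cfap410 was called too, with a change of -0.50, while its brightest probe was at 0.08.

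**Figure D4:**
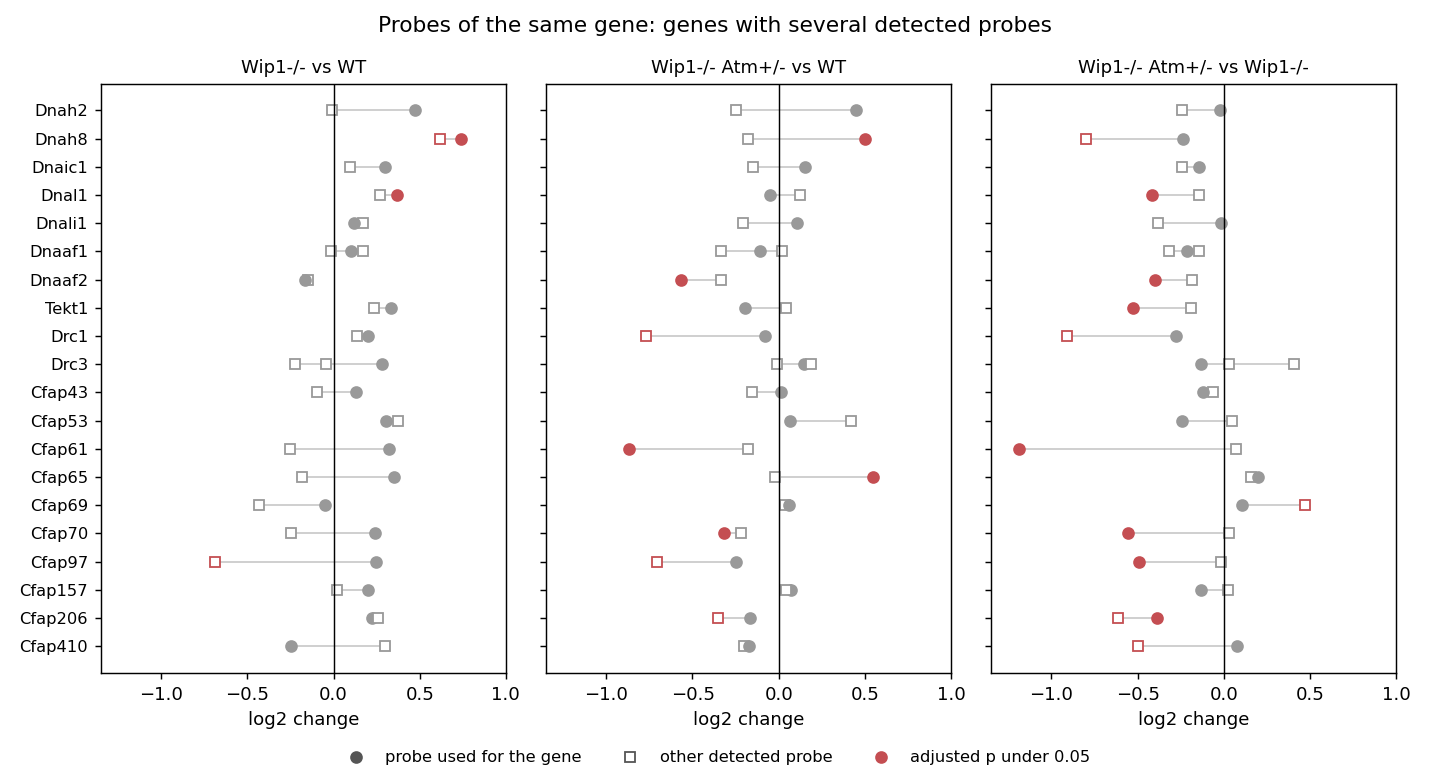
Log2 change of each kept probe of the 20 axoneme genes with several kept probes, in the 3 comparisons, with the brightest probe as a filled circle, other probes as open squares, and changes at an adjusted p under 0.05 in red. Circle and square lie far apart for Cfap61 in the right panel (-1.19 and 0.07), and no gene has red symbols on both sides of 0.

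Over all 69 kept member probes, the fit of every detected probe gave 6 higher and 2 lower in Wip1-/- against WT (9.57% and 8.05% of all 18867 probes, 17.6% together), 4 higher and 9 lower in Wip1-/- Atm+/- against WT (13.3% and 14.8%, 28.1% together), and 2 higher and 15 lower in Wip1-/- Atm+/- against Wip1-/- (15.1% and 18.5%, 33.6% together). Among the 20 genes with several kept probes, 0 had probes called in opposite directions in one comparison. The authors' processed values, over all 105 member probes and with no filter, gave 10 higher and 3 lower in Wip1-/- against WT (4.35% and 3.65% of 45279 probes, 7.99% together), 6 higher and 9 lower in Wip1-/- Atm+/- against WT (6.45% and 6.68%, 13.1% together), and 2 higher and 15 lower in Wip1-/- Atm+/- against Wip1-/- (6.87% and 8.27%, 15.1% together). These unfiltered shares rest on unlike bases, since the filter on detection kept 69 of the 105 member probes and 18867 of all 45279 probes. All 8, 13 and 17 probes called from the scanner values in the 3 comparisons had the same sign in the authors' table. Both files come from the same 9 arrays.

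Other parts of the axoneme, listed outside the name rule, can be set beside the members. Of all genes tested, 19.8% were called in Wip1-/- against WT and 29.4% in Wip1-/- Atm+/- against WT. In Wip1-/- Atm+/- against Wip1-/- 34.7% were called. The counts of the lists below are to be read beside these shares. The members' lean up in Wip1-/- against WT and down in Wip1-/- Atm+/- against Wip1-/- was also seen in some lists. In these comparisons 87.5% and 0% of the tested nexin-dynein and ruler genes lay above 0. For the assembly factors it was 88.9% and 33.3%, and for doublet inner proteins and spoke partners 50% and 60%. The central apparatus, docking, intraflagellar transport and cytoplasmic dynein lists had 60% to 66.7% and 33.3% to 42.1%. Of 11 further genes of the nexin-dynein regulatory complex and the ruler that spaces the arms, 8 were tested, with 1 higher in Wip1-/- than in WT, 0 called (1 at an unadjusted p under 0.05 in limma) in Wip1-/- Atm+/- against WT and 3 lower in Wip1-/- Atm+/- than in Wip1-/-. Ccdc39, which forms the ruler with Ccdc40, rose by 0.56 in Wip1-/- against WT (limma adjusted p = 0.0166). It fell by 0.46 in Wip1-/- Atm+/- against Wip1-/- (limma adjusted p = 0.0227), where Ccdc40 fell by 0.45 (limma adjusted p = 0.0119). Of 14 central apparatus genes 9 were tested, with 1 higher in Wip1-/-, and with 1 lower against WT and 2 lower against Wip1-/- on arrays labelled Wip1-/- Atm+/-. Spag6l, a central apparatus protein, rose by 0.36 in Wip1-/- against WT (limma adjusted p = 0.0395) and fell by 0.67 in Wip1-/- Atm+/- against Wip1-/- (limma adjusted p = 0.000753). Its paralogue Spag6 fell by 0.87 between the mutant genotypes (limma adjusted p = 0.000193).

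Among 22 outer arm docking genes and dynein regulators 15 were tested, with 2 higher and 1 lower in Wip1-/-, 0 higher and 1 lower in Wip1-/- Atm+/- against WT, and 1 higher and 4 lower in Wip1-/- Atm+/- against Wip1-/-. The docking complex genes Ccdc114 and Armc4 fell by 0.51 and 0.46 in that last comparison (limma adjusted p = 0.00589 and 0.0185), while Efcab1, a calcium-binding protein of the same structure, rose by 1.40 (limma adjusted p = 2.49e-05) after a fall of 1.10 in Wip1-/- against WT (limma adjusted p = 0.000592). Wdr63, an intermediate chain of an inner arm, fell by 0.86 against Wip1-/- (limma adjusted p = 0.000541) and by 0.78 against WT (limma adjusted p = 0.00115) on arrays labelled Wip1-/- Atm+/-. For 9 tested of 15 assembly factors outside the Dnaaf name the counts were 3 higher and 0 lower in Wip1-/- against WT, 1 higher and 1 lower in Wip1-/- Atm+/- against WT, and 0 higher and 1 lower in Wip1-/- Atm+/- against Wip1-/-. Zmynd10, one of these factors, fell by 0.37 and 0.38 on arrays labelled Wip1-/- Atm+/- against WT and against Wip1-/- (limma adjusted p = 0.0256 and 0.0189).

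Of 17 doublet inner proteins and spoke partners 10 were tested, with 1 higher and 2 lower in Wip1-/-, 0 called (1 at an unadjusted p under 0.05 in limma) in Wip1-/- Atm+/- against WT, and 2 higher and 2 lower against Wip1-/-. Mns1, an inner protein of the doublets, rose by 0.53 in Wip1-/- against WT (limma adjusted p = 0.00689) and fell by 0.51 in Wip1-/- Atm+/- against Wip1-/- (limma adjusted p = 0.00406). Intraflagellar transport, the carriage of cargo along the axoneme, had 19 of 21 genes tested, with 2 higher and 2 lower in Wip1-/- against WT, 2 higher and 3 lower in Wip1-/- Atm+/- against WT, and 3 higher and 5 lower in Wip1-/- Atm+/- against Wip1-/-. Kif17, a kinesin, fell by 1.03 in Wip1-/- (limma adjusted p = 0.00262) and rose by 0.74 on arrays labelled Wip1-/- Atm+/- (limma adjusted p = 0.00832) against WT. The cytoplasmic dynein and dynactin genes, which carry cargo in all cells and are no part of the axoneme, had 15 of 17 tested, with 1 higher and 1 lower, 2 higher and 4 lower, and 0 higher and 5 lower in these comparisons. Dctn6, a dynactin subunit, fell by 2.21 against WT (limma adjusted p = 2.31e-07) and by 2.38 against Wip1-/- (limma adjusted p = 3.75e-07) on arrays labelled Wip1-/- Atm+/-.

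Of the 19 member genes called in at least 1 comparison, 9 were called in 2 and 0 in all 3. The 28 calls of these genes were recomputed under up to 9 other settings and with each array left out. In all of them 10 calls were kept: those of Tekt5 and Cfap61 (2 each), Dnah8 in Wip1-/- and Dnah11 in Wip1-/- Atm+/- against WT, and Dnaic2, Dnal1, Tekt1 and Drc7 in Wip1-/- Atm+/- against Wip1-/-. The remaining 18 were lost in at least 1 setting or left-out fit. All settings but the mean of detected probes used 1 probe per gene. Among the genes with kept calls, the further kept probes of Cfap61, Dnal1 and Tekt1 were not called in the same comparisons, while that of Dnah8 was. Tekt5, Dnah11, Dnaic2 and Drc7 have 1 kept probe each.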

How the data were processed

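Spermatid RNA of 3 genotypes was measured on 9 Illumina Mouse WG-6 v2.0 arrays. Per the labels' protocols, Trizol RNA was cleaned on columns with DNase and turned into biotinylated cRNA. The deposited scanner table gives, per the file headers, a raw intensity and a detection p-value for each probe and array. A decimal point was missing from 895 detection p-values, which were divided by 1000, a reading from the values. The authors' second deposited table holds processed intensity values (linear, medians 110.972 to 111.065). By its values it was quantile normalized without background removal, which the headers do not state. The sources used here do not name the scanner software.

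Scanner intensities went through limma's neqc (limma 3.58.1, R 4.3.3; offset 16, which shrinks changes of dim probes, then quantile normalization, which removes differences in total RNA). Probes detected (p under 0.05) on 3 or more arrays were kept, and the brightest probe per gene was tested with lmFit and eBayes (6 residual and 5.09 prior degrees of freedom), two-sided, with Benjamini-Hochberg adjustment over 10556 genes at 0.05. Further fits used every detected probe and the log2 of the authors' deposited intensity. The fit was tested on simulated data. Per-array levels are given for every called member and for the brightest kept member of each family, and up to 4 called genes per comparison come from each of 8 lists of axoneme-related genes, beside 10 marker lists. Rfx2, Foxj1, Cfap52 and the other uncalled genes given with values were picked after their values were seen. The members and the lists were chosen with earlier results of these data known. Precision is limited by the number of arrays. The alternatives changed the background correction, normalization, filter, probe rule, value file, arrays in the fit, pairing and replicates. No column of sample values was left unused. Promoter sequences are RefSeq's, build GRCm38.p6.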

Additional observations from a re-analysis of the deposited data

How the results depend on the processing

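With median scaling the members' median change was 0.103 in Wip1-/- against WT, -0.19 in Wip1-/- Atm+/- against WT and -0.299 in Wip1-/- Atm+/- against Wip1-/-. With cyclic loess it was 0.05 and -0.092 in the last 2 of these. In Wip1-/- against WT it was 0.133 with no filter on detection and 0.125 with the mean of a gene's detected probes. Leaving out 1 array at a time, the medians ran from 0.17 to 0.20, from -0.053 to 0.017 and from -0.176 to -0.119 in the 3 comparisons. The calls of members in Wip1-/- against WT numbered 12 of 47 (25.5%, against 22.3% of all genes) with no background correction and 10 of 41 (24.4%, against 24.2%) with probes detected on all 9 arrays, and 2 to 6 with 1 array left out (7 to 9 and 9 to 12 in the other comparisons). The share of all genes called with 1 array left out varied too, from 11.7% to 19.4% in Wip1-/- against WT. It ran from 23.6% to 27.9% in Wip1-/- Atm+/- against WT and from 27.5% to 35.8% in Wip1-/- Atm+/- against Wip1-/-. Called member probes in Wip1-/- against WT were 16 with no background correction and 3 to 7 with 1 array left out (9 to 12 and 12 to 18 in the other comparisons). The share of all probes called in these probe fits was not taken, so these counts cannot be read as a trait of the members.

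Whether the replicate numbers pair the arrays was not settled. Same-numbered arrays of different genotypes correlated at -0.298 to 0.272 in their deviations (median -0.024), and 2 of 9 arrays correlated best with their own number. Between the mutant genotypes, same-number correlations were 0.272, 0.159 and 0.046, beside -0.229 to 0.063 for unlike numbers. Between WT and Wip1-/- they were -0.043, -0.298 and -0.095, beside -0.094 to 0.189. Between WT and Wip1-/- Atm+/- they were 0.016, -0.119 and -0.024. Deviations from a genotype mean of 3 arrays depend on each other, so these values cannot decide it. With the replicate number as a block, 3 members (6.38%, against 17.4% of all genes) were called in Wip1-/- against WT. Of the member probes 5 were called there, with the share of all probes not taken. Dnal1, Dnah11 and Dnah17 were then not called in Wip1-/- against WT, nor Cfap70 in Wip1-/- Atm+/- against WT, and the Rsph9 probe with blank scanner cells stayed at -0.26 but was not called in Wip1-/- Atm+/- against Wip1-/-. A fit of the blank probes alone also left it at -0.26 and not called. Over the left-out fits this probe ran from -0.287 to -0.232 and that of Dnal1 from 0.252 to 0.333 in Wip1-/- Atm+/- against WT.

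None of the values that changed sign was called. With median scaling they were -0.0131 for Cfap206, -0.0688 for Dnaaf1 and -0.0341 for Rsph1 in Wip1-/- against WT, -0.0711 for Dnaic1 and -0.0556 for Dnali1 in Wip1-/- Atm+/- against WT, and -0.0246 for Dnah11 and -0.16 for Dnah17 in Wip1-/- Atm+/- against Wip1-/-. With the mean of detected probes they were -0.0045 for Cfap70 and -0.22 for Cfap97 in Wip1-/- against WT, and 0.0375 for Dnal1 and -0.0516 for Dnali1 in Wip1-/- Atm+/- against WT. In Wip1-/- Atm+/- against Wip1-/-, Dnali1 was 0.0478 with cyclic loess and -0.0897 to 0.0755 with 1 array left out, above 0 without Wip1-/- replicate 1 (0.0332), Wip1-/- replicate 3 (0.0154) or Wip1-/- Atm+/- replicate 2 (0.0755), and Dnah1 was 0.0036 without Wip1-/- replicate 1 and 0.0296 without Wip1-/- Atm+/- replicate 2. The causes were not tested. Of the recomputed values of single genes, 1111 kept direction and side of the threshold, 81 lost a call, 27 gained one and 17 changed sign. The chip as a block was not run, since the headers name no chip. Members near the background, such as Dnah1 and Cfap300, have changes that the offset shrinks.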
